A study of Mus musculus with 11 samples.

Results

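Guanylate-binding proteins are large GTPases that cells make in response to interferons, above all interferon gamma. They gather on the vacuoles and membranes of intracellular bacteria and parasites and help to break them open, and several of them promote the assembly of inflammasomes. Interferon gamma acts through its receptor and the kinases Jak1 and Jak2, and the transcription factor Irf1 takes part in switching on the Gbp genes. The 8 genes described here, Gbp2, Gbp3, Gbp4, Gbp5, Gbp6, Gbp7, Gbp8 and Gbp9, were taken by gene symbol from a table of 23420 genes measured in mouse heart. They were grouped because Gbp6 was already known to be among the genes that differed between hearts lacking endothelial Cd36 (EC KO) and Control hearts, so the members were chosen by the EC KO and Control levels of Gbp6 and that contrast is described without a test.

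The hearts came from mice in which Cd36, the gene of a fatty acid translocase, carried loxP sites. The EC cd36 KO group (EC KO, 3 libraries) was made with Tie2-cre, which is active in endothelial cells and also in many blood cells, and the MHC cd36 KO group (MHC KO, 3 libraries) with MHC-cre, which is active in cardiomyocytes. The Total cd36 ko group (Total KO, 3 libraries) is labelled as lacking Cd36 throughout, without the way it was made, and the Control group (2 libraries) is labelled without a Cre. All 4 groups carry the same strain label, a cross of Cd36 loxp mice, and neither age nor sex was among the labels. Total RNA from whole heart was depleted of ribosomal RNA and sequenced, and values are counts normalized between libraries by the authors, called normalized counts below. The labels do not say that the libraries came from separate animals, so p-values measure only the spread between these libraries.

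Libraries held 11157062 to 20105673 recovered reads, except EC KO replicate 1 with 2268403. Cd36 itself had 25760 to 30310 normalized counts in EC KO hearts, 15790 to 21610 in MHC KO hearts and 18850 to 23450 in Total KO hearts, against 35420 and 44530 in Control hearts. The Total KO and MHC KO ranges of Cd36 overlapped, so its counts do not show the wider loss that the Total KO label names. The deleted part of the gene is not given in the sources used here. Cardiomyocyte markers had the highest sum of the cell type marker lists in every library, at 801000 to 1439000 normalized counts over 10 genes. In whole tissue, fewer cells of a type and less RNA per cell cannot be told apart.

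In the mm10 genome the members lie in 2 clusters (GENCODE M21). Gbp5, Gbp7, Gbp3 and Gbp2 follow each other on the plus strand of chromosome 3 over 144.0 kb, at chr3:142493978-142638008. Gbp8, Gbp9, Gbp4 and Gbp6 lie on the minus strand of chromosome 5 over 279.5 kb, at chr5:105014150-105293698, with Gbp6 at chr5:105270702-105293698. Gbp4, Gbp8 and Gbp9 share 60 to 61 exon bases, and how the authors assigned reads in such bases is not given in the sources used here.

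The upstream sequences of the chromosome 3 members are shown to let the interferon motifs in them be seen. The RefSeq promoter table (GRCm38.p6, the mm10 assembly) held 4 of the 8 members, Gbp2, Gbp3, Gbp5 and Gbp7, and Gbp4, Gbp6, Gbp8 and Gbp9 had no entry. The windows are the 250 bases before the start in that table, on the plus strand, at chr3:142496684-142496933 for Gbp5, chr3:142530086-142530335 for Gbp7, chr3:142559794-142560043 for the 1st start of Gbp3 and chr3:142620413-142620662 for Gbp2. These starts differ from those of GENCODE M21. There Gbp5 begins at chr3:142493978, before its window, and Gbp3 at chr3:142560026 and Gbp2 at chr3:142620602, inside theirs. Distances below are from the RefSeq starts. Capitals mark each match, on either strand, to the half-site GAAA followed by 2 bases of any kind and GAAA again, the core of the interferon-stimulated response element bound by Irf factors, and to TTCNNNGAA, the gamma-activated site of interferon gamma responsive promoters.
Gbp5: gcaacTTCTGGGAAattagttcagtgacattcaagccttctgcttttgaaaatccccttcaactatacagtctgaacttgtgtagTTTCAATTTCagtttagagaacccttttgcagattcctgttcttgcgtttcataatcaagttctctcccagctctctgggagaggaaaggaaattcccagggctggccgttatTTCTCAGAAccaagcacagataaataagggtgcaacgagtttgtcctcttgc
Gbp7: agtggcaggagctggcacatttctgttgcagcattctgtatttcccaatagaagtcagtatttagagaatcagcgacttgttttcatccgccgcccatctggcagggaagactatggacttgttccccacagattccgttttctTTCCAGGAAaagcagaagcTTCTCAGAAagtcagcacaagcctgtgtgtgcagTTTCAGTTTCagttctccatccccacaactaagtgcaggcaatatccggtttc
Gbp3: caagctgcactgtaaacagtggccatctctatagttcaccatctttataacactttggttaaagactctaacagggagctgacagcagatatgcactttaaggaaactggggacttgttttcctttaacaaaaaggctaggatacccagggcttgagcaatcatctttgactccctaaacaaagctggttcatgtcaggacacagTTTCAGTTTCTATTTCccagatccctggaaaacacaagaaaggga
Gbp2: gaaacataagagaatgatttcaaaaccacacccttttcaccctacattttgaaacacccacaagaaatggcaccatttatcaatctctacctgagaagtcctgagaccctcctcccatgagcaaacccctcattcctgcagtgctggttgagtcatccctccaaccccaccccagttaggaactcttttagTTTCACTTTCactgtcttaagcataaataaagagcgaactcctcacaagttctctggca
The response element core was found in 4 of the 5 member windows (Gbp3 has a further start, whose window held neither motif), against 3.0% of the 32851 windows of the table. It began 165 bases before the start of Gbp5, 53 before Gbp7 and 59 before Gbp2, and the window of Gbp3 held a pair of overlapping matches beginning 45 and 39 bases before the start. The gamma-activated site was found in 2 of the 5 windows, those of Gbp5 and Gbp7, each holding it at 2 places, against 7.0% of all windows. Both motifs stood in the same window for Gbp5 and Gbp7, against 0.3% of all windows. A match is a description of the letters and was not tested for binding.

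**Figure D1:**
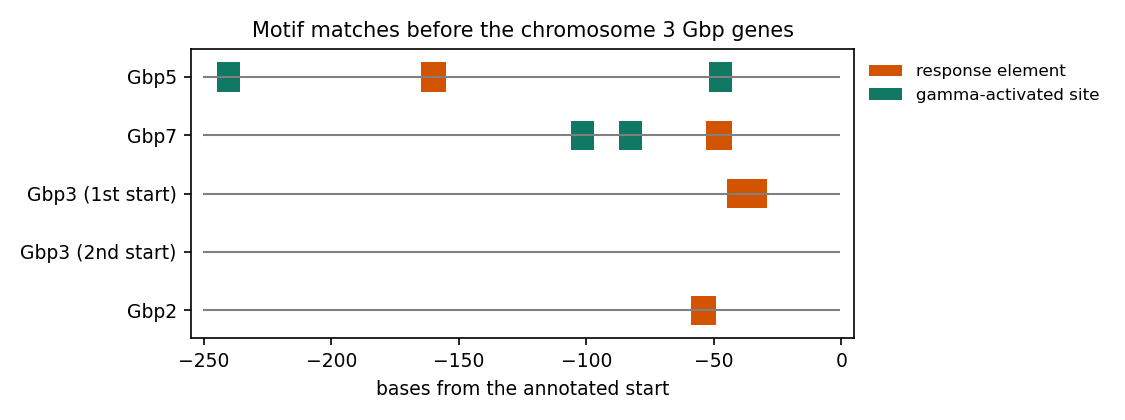
Positions of the motif matches in the 250 bases before the RefSeq start of the chromosome 3 members (x axis, bases from that start; each row is 1 window). Orange boxes are matches to the interferon response element core and green boxes matches to the gamma-activated site; 4 of the 5 windows hold the response element core and 2 hold the gamma-activated site.

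Gbp6, by whose EC KO and Control levels the members were chosen, was the member whose level differed most between the groups. Its place among the members is therefore not independent of that choice. In mouse macrophages Gbp6 is among the family members that restrict intracellular bacteria. It had 900.3, 825 and 885 normalized counts in the 3 EC KO hearts, 194, 149 and 169 in MHC KO hearts, 715, 677 and 415 in Total KO hearts, and 448 and 276 in Control hearts. Every EC KO library stood above every library of the other groups, every MHC KO library stood below them, and the Total KO and Control ranges overlapped. These values rest on 149 to 1001 recovered reads of Gbp6 per library. The group order by mean was therefore EC KO, Total KO, Control and MHC KO, and the neighbours Total KO and Control were not separated beyond their spread.

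**Figure D2:**
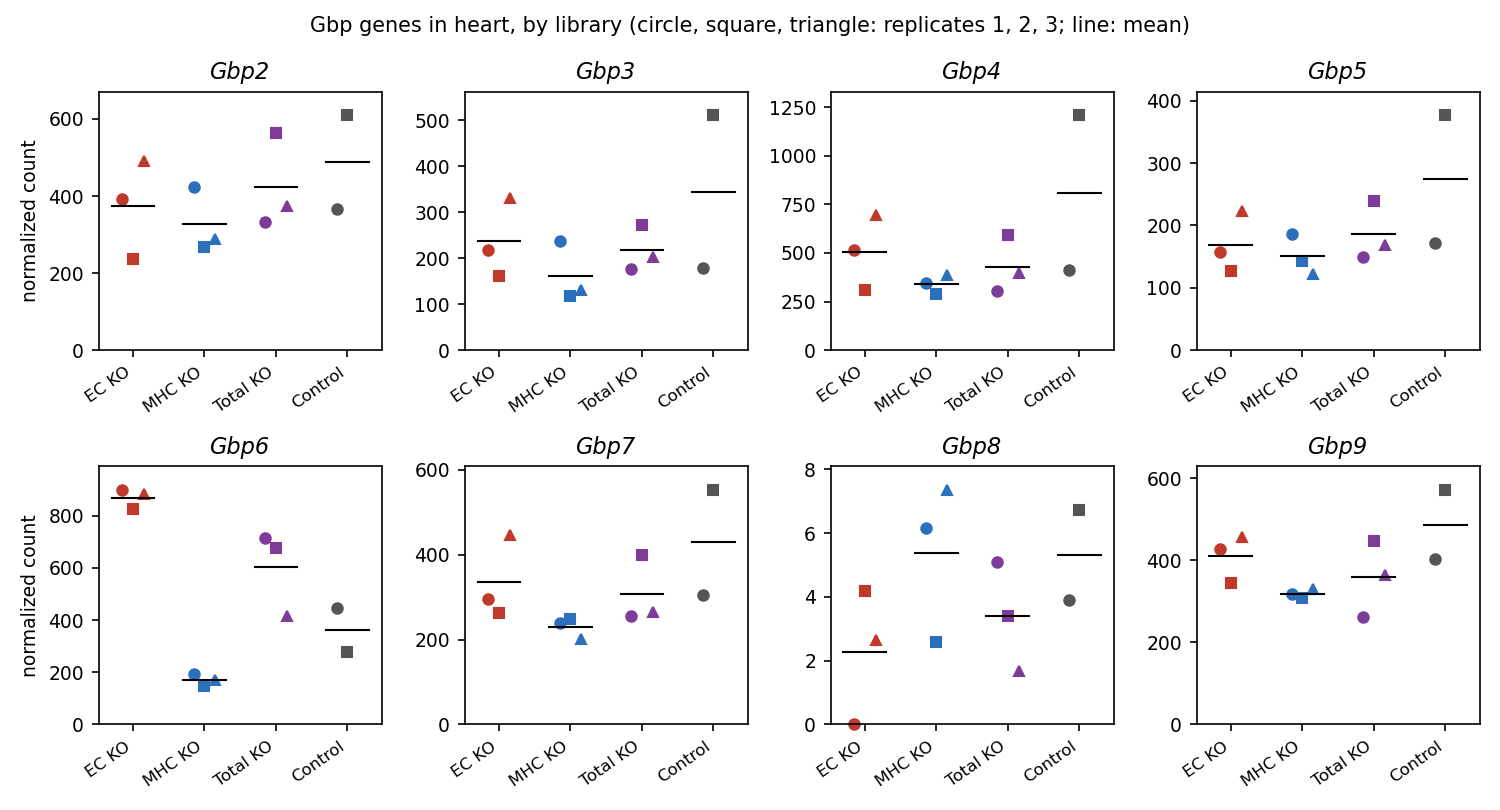
Normalized count of each of the 8 members (y axis, a separate scale for each gene) in EC KO, MHC KO, Total KO and Control hearts; points are libraries and the line is the group mean. Gbp6 separates the EC KO libraries, 825 to 900.3, from the MHC KO libraries, 149 to 194, whereas in the panels of Gbp2, Gbp3, Gbp4, Gbp5, Gbp7 and Gbp9 the highest point is Control replicate 2.

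Unlike Gbp6, the other 6 well-expressed members all had their highest mean in Control hearts. Like Gbp6, they had their lowest mean in MHC KO hearts, but most neighbouring groups overlapped. Gbp4 had 514, 311 and 696 normalized counts in EC KO hearts, 346, 290.1 and 388 in MHC KO hearts, 303, 592 and 396 in Total KO hearts, and 413 and 1208 in Control hearts. Gbp9 had 429, 345 and 456 in EC KO hearts, 319, 308 and 329.6 in MHC KO hearts, 262, 449 and 365 in Total KO hearts, and 403 and 573 in Control hearts. The 3 MHC KO libraries of Gbp9 lay close together and below all EC KO and Control libraries. Gbp7, which in mouse macrophages recruits the NADPH oxidase to bacteria, had 296, 262 and 447 normalized counts in EC KO hearts, 239.9, 248 and 201 in MHC KO hearts, 256, 399 and 265 in Total KO hearts, and 305 and 553 in Control hearts. Its MHC KO libraries lay below those of all the other groups. Among these 6 genes, the only pair of groups adjacent in the order of means that did not overlap was Total KO and MHC KO for Gbp7.

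Gbp2, a prenylated family member that coats the vacuole of Toxoplasma, averaged 373 ± 129 normalized counts in EC KO hearts, 327 ± 84.7 in MHC KO hearts and 423 ± 123 in Total KO hearts (SD, n = 3 each), against 488 ± 171 in Control hearts (SD, n = 2). Gbp3 averaged 236 ± 86.6 in EC KO hearts, 162 ± 65.1 in MHC KO hearts and 217 ± 49.8 in Total KO hearts (SD, n = 3 each), against 344 ± 234 in Control hearts (SD, n = 2). Gbp5, which promotes assembly of the NLRP3 inflammasome, averaged 169 ± 49.8 in EC KO hearts, 151 ± 32.2 in MHC KO hearts and 186 ± 47.2 in Total KO hearts (SD, n = 3 each), against 275 ± 144 in Control hearts (SD, n = 2). All 4 groups overlapped for these 3 genes, whose Control SD was the largest of the 4 groups. Gbp8 had 0 to 9 reads per library and a mean of 3.98 normalized counts over the 11 libraries, so it did not pass the filter (a mean of at least 10) and was not tested. In EC KO replicate 1 no Gbp8 read was found, and 3 reads, the limit that a count of 0 allows, would be 18.1 normalized counts there; these limits cover counting error only.

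Levels of different genes can be set side by side only per length. Per kilobase of exon, the mean normalized count of Gbp6 was 146 in EC KO hearts, 28.7 in MHC KO hearts, 101 in Total KO hearts and 60.8 in Control hearts. Gbp2 had 148 per kilobase in EC KO hearts, 130.1 in MHC KO hearts, 168 in Total KO hearts and 194 in Control hearts. Gbp5 was the lowest of the 7 genes per kilobase in every group, at 25.5 in EC KO hearts, 22.7 in MHC KO hearts, 28.0 in Total KO hearts and 41.4 in Control hearts. The exon length counts every base, although 49.9% of the 50-base windows of Gbp6 transcripts and 2.0% of those of Gbp2 also occur in another Gbp gene. How the authors counted reads from such stretches is not given in the sources used here. The order of Gbp6 and Gbp2 per kilobase in EC KO hearts is therefore uncertain.

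MHC KO hearts, in which cardiomyocytes lose Cd36, were compared with Control hearts. As Control is labelled without a Cre, loss of Cd36 and the presence of MHC-cre cannot be told apart in this contrast. The same holds for Tie2-cre in EC KO against Control hearts. The Control levels of Gbp6 were part of the choice of the members, so its tests against Control are not independent of that choice. Gbp6 fell to 171 ± 22.4 normalized counts in MHC KO hearts (SD, n = 3), against 362 ± 122 in Control hearts (SD, n = 2), a log2 difference of -1.05 ± 0.23 (SE; limma, adjusted p = 0.0251 over all genes tested, lower in 3 of 3 MHC KO libraries). It was 1 of 7 tested members called, where 5.7% of the 12976 genes tested were called in either direction and 2.4% as lower. The remaining 6 members also had negative differences in limma, which did not pass the threshold: -0.56 ± 0.32 for Gbp2, -0.96 ± 0.42 for Gbp3, -1.06 ± 0.41 for Gbp4, -0.78 ± 0.32 for Gbp5, -0.84 ± 0.28 for Gbp7 and -0.59 ± 0.21 for Gbp9 (SE), with adjusted p of 0.0977 to 0.352. The median over the 7 genes was -0.84, beside 0 over all genes tested. MHC KO and Control ranges did not overlap for 4 members, Gbp4, Gbp6, Gbp7 and Gbp9, all lower in MHC KO, where 18.3% of all genes tested were lower without overlap.

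The call of Gbp6 in this comparison depended on single libraries. Without Control replicate 1 its log2 difference was -0.70 (limma, adjusted p = 0.262), and without MHC KO replicate 3 it was -1.04 (limma, adjusted p = 0.0522). A limma fit to these 2 groups alone gave an adjusted p of 0.0758, whereas DESeq2 called Gbp6, Gbp7 and Gbp9 as lower. Calls over all genes moved too: there were 739 with all libraries, 26 without Control replicate 1, 63 in the fit to the 2 groups and 1276 by DESeq2. The difference of the other members depended on Control replicate 2: without it, the log2 differences of Gbp2, Gbp3, Gbp4, Gbp5, Gbp7 and Gbp9 were -0.19, -0.21, -0.28, -0.21, -0.41 and -0.34, while that of Gbp6 was -1.39 (limma, adjusted p = 0.0183). MHC KO hearts also differed in cell type markers. Macrophage and monocyte markers rose in MHC KO hearts for 9 of 11 genes tested (limma), with a summed level of 8910 to 16730 normalized counts in MHC KO hearts, against 4771 to 5170 in Control hearts. Fibroblast markers rose for 6 of 10 genes (limma), with sums of 32510 to 96780 in MHC KO hearts, against 19890 to 20770 in Control hearts. By limma, edgeR and DESeq2 0 of 12 endothelial markers were called (1 at an unadjusted p under 0.05 in limma). Their median log2 difference was -0.18, with 0 above 0. Endothelial sums were 20100 to 21030 in MHC KO hearts, against 22540 to 24540 in Control hearts. Of 10 cardiomyocyte markers limma and edgeR called 0 and DESeq2 1 (2 at an unadjusted p under 0.05 in limma). Their median was -0.31, with 1 above 0. Cardiomyocyte marker sums were 801000 to 1153000 in MHC KO hearts, against 1269000 to 1274000 in Control hearts. The part of these cell types in the fall of Gbp6 was not tested.

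Total KO hearts were set against the same Control libraries, so the contrasts with Control are not independent. Gbp6 averaged 603 ± 163 normalized counts in Total KO hearts (SD, n = 3), against 362 ± 122 in Control hearts (SD, n = 2), a log2 difference of 0.74 ± 0.23 (SE; limma, adjusted p = 0.366). The other 6 tested members had log2 differences of -0.77 for Gbp4, -0.50 for Gbp3, -0.48 for Gbp5, -0.45 for Gbp7 and for Gbp9, and -0.20 for Gbp2, with adjusted p of 0.61 to 0.942 in limma. By limma 0 of 7 members were called, beside 0.0848% of all genes tested, and edgeR and DESeq2 called 0 as well. In limma 2 members, Gbp6 and Gbp9, had an unadjusted p under 0.05. The median over the 7 genes was -0.45, beside 0 over all genes tested, and the ranges of every tested member overlapped, where 12.3% of all genes tested were higher and 12.8% lower without overlap. Without Control replicate 2 the differences of Gbp2, Gbp3, Gbp4 and Gbp5 turned to 0.17, 0.26, 0.01 and 0.08, those of Gbp7 and Gbp9 were -0.02 and -0.20. That of Gbp6 was then 0.39.

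The groups labelled Total KO and MHC KO were also compared with each other. Control levels do not enter this difference, but its SE and p rest on the spread in the fit of all 11 libraries. Gbp6 was higher in Total KO hearts, at 603 ± 163 normalized counts, against 171 ± 22.4 in MHC KO hearts (SD, n = 3 each), a log2 difference of 1.78 ± 0.21 (SE; limma, adjusted p = 0.000722, higher in 3 of 3 Total KO libraries). It was 1 of 7 members called, where 16.4% of all genes tested were called in either direction and 8.2% as higher. The log2 differences of the other members were 0.36 for Gbp2, 0.47 for Gbp3, 0.29 for Gbp4 and for Gbp5, 0.39 for Gbp7 and 0.13 for Gbp9, none past the threshold in limma. The median over the 7 genes was 0.36, beside -0.01 over all genes tested, and ranges did not overlap for Gbp6 and Gbp7, higher in Total KO, as for 19.6% of all genes tested. Gbp6 was called in this comparison under all 22 alternatives tried, with log2 differences of 1.64 to 2.03 and adjusted p of 1.77e-14 to 0.00599. In the limma fit to these 2 groups alone its adjusted p was 0.00478. Between these groups, macrophage marker sums were 4523 to 6401 in Total KO hearts, against 8910 to 16730 in MHC KO hearts, and endothelial marker sums were 22310 to 23450 in Total KO hearts, against 20100 to 21030 in MHC KO hearts. Fibroblast markers were lower in Total KO hearts for 9 of 10 genes in limma, with sums of 17200 to 21920 in Total KO hearts, against 32510 to 96780 in MHC KO hearts. Cardiomyocyte marker sums were 1325000 to 1419000 in Total KO hearts, against 801000 to 1153000 in MHC KO hearts, with 1 of 10 genes called higher in limma and all 10 differences above 0. The part of these cell types in the difference of Gbp6 was not tested.

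**Figure D3:**
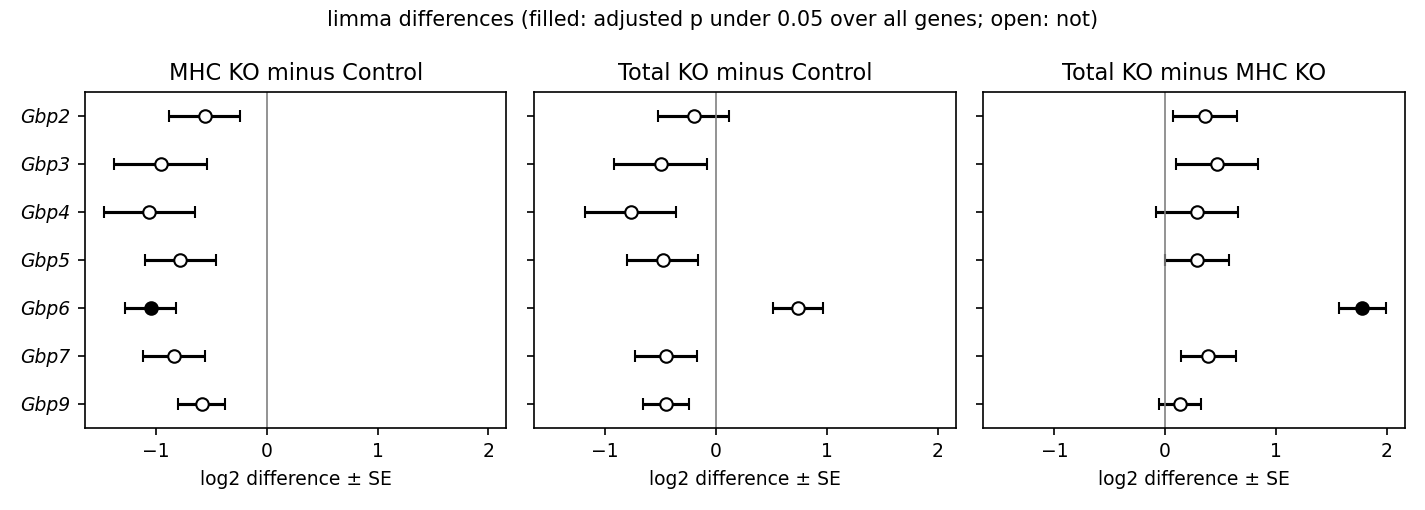
Log2 difference with its SE (x axis, limma on log2(value + 1)) of the 7 tested members (rows) in MHC KO minus Control, Total KO minus Control and Total KO minus MHC KO; filled points passed an adjusted p under 0.05 over all genes tested. Gbp6 alone is filled, at -1.05 in the left panel and 1.78 in the right panel.

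The EC KO contrasts hold the values for which the members were chosen and are given as a description. Gbp6 averaged 870 ± 40.1 normalized counts in EC KO hearts (SD, n = 3), against 362 ± 122 in Control hearts (SD, n = 2), a log2 difference of 1.30 ± 0.23 (SE). The other 6 tested members had log2 differences of -0.63 for Gbp5, -0.55 for Gbp4, -0.42 for Gbp3, -0.40 for Gbp2, -0.33 for Gbp7 and -0.24 for Gbp9, all with overlapping ranges. Only Gbp6 among the 7 had ranges apart and higher in EC KO, beside 12% of all genes tested, and 0.17% of all genes were called as higher. Leaving out Control replicate 2 brought the differences of Gbp2, Gbp3, Gbp4, Gbp5, Gbp7 and Gbp9 to -0.04, 0.34, 0.22, -0.07, 0.10 and 0.02, with Gbp6 at 0.96. Against MHC KO hearts, EC KO hearts had 2.35 more on the log2 scale for Gbp6, and Gbp6, Gbp7 and Gbp9 were higher without overlap, beside 19.1% of all genes tested. Total KO minus EC KO gave -0.57 for Gbp6, the only member lower without overlap, beside 8.95% of all genes tested. Endothelial marker sums were 25760 to 29180 in EC KO hearts, against 22540 to 24540 in Control hearts, and of the 12 markers limma and edgeR called 0 and DESeq2 1 (6 at an unadjusted p under 0.05 in limma); their part in the level of Gbp6 was not tested.

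Gbp6 and the other well-expressed members varied separately between libraries. Over the 11 libraries, the 15 pairs among Gbp2, Gbp3, Gbp4, Gbp5, Gbp7 and Gbp9 had Pearson correlations of 0.75 to 0.94 (median 0.89), whereas Gbp6 had 0.05 to 0.35 with each of them (median 0.20). After each group's mean was subtracted, the ranges were 0.73 to 0.96 among the 6 genes and -0.36 to 0.01 with Gbp6. The 6 genes lie on both chromosomes, and the libraries share groups and differ in depth, so these correlations describe the 11 libraries only. Gbp6 made up 31.0, 36.4 and 25.1% of the summed normalized counts of the 7 genes in EC KO hearts, 9.96, 9.77 and 10.4% in MHC KO hearts, 32.6, 21.2 and 19.0% in Total KO hearts, and 19.6 and 6.72% in Control hearts. The share was nearly the same in the 3 MHC KO libraries and differed most as a ratio between the 2 Control libraries, while the Total KO shares covered the widest range in percentage points.

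**Figure D4:**
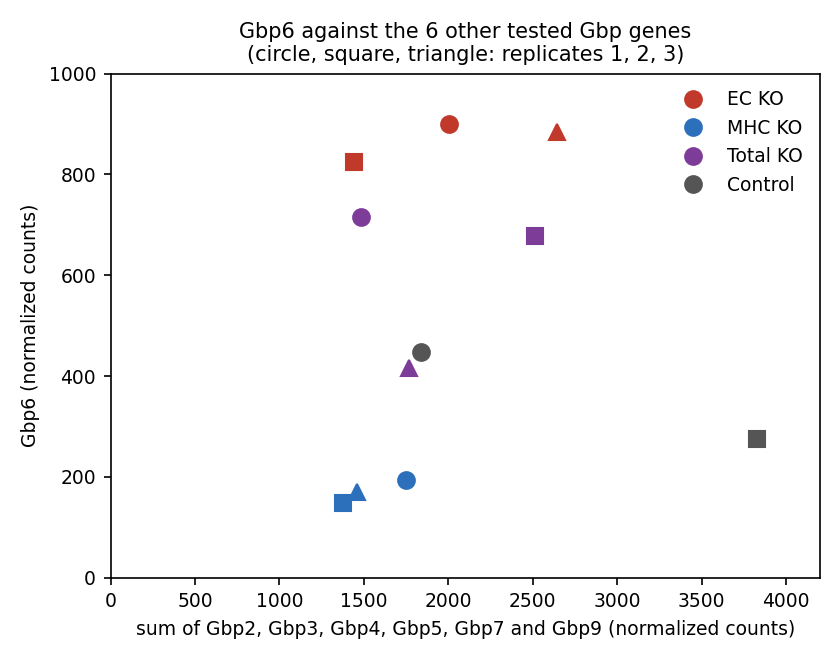
Gbp6 (y axis) against the sum of Gbp2, Gbp3, Gbp4, Gbp5, Gbp7 and Gbp9 (x axis), both in normalized counts; each point is 1 of the 11 libraries. EC KO libraries lie at the top, with Gbp6 at 825 to 900.3 over sums of 1440 to 2645, MHC KO libraries at the bottom left, and Control replicate 2 at the far right with a sum of 3829 and Gbp6 at 276.

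The 2 Control libraries stood apart from each other in these genes, a comparison chosen after their values were seen. Control replicate 2 held 2.93 times the Gbp4 level of Control replicate 1, 2.85 times that of Gbp3, 2.18 times that of Gbp5, 1.82 times that of Gbp7, 1.66 times that of Gbp2 and 1.42 times that of Gbp9, but 0.616 times that of Gbp6. It was the highest of the 11 libraries for all 6 genes other than Gbp6. The median log2 difference of Control replicate 2 over replicate 1 was 0.99 for these 6 genes and 0.94 for the 7 tested immunity-related GTPases, beside -0.01 over all genes tested, for which the 90th percentile was 0.47. It was 0.65 for the 14 tested immunoproteasome, peptide loading and chemokine genes and 0.46 for 26 type I interferon-stimulated genes. For 12 genes of interferon gamma signalling it was 0.13, and for 6 inflammasome genes -0.13. Among cell type markers it was 0.47 for pericytes and smooth muscle, 0.21 for fibroblasts, 0.10 for macrophages and monocytes, -0.02 for endothelial cells and -0.15 for cardiomyocytes.

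Gbp10, a close relative of Gbp6 that is no member here, followed Gbp6. It had 48.3, 41.0 and 38.9 normalized counts in EC KO hearts, 4.63, 5.18 and 8.18 in MHC KO hearts, 54.7, 28.1 and 25.0 in Total KO hearts, and 22.5 and 22.4 in Control hearts. It fell in MHC KO against Control hearts by 1.78 on the log2 scale (SE 0.37; limma, adjusted p = 0.0213) and was higher in Total KO than in MHC KO hearts by 2.35 ± 0.33 (SE; limma, adjusted p = 0.00173), whereas its Total KO minus Control difference was 0.57 (limma, adjusted p = 0.777). The Gbp10 values rest on 6, 8 and 10 recovered reads in MHC KO hearts and 8 in EC KO replicate 1. The other libraries had 29 to 49 reads of Gbp10. Its MHC KO mean lay under 10 normalized counts, the minimum that the filter set for the mean of all libraries. The size of its differences from MHC KO hearts is therefore imprecise. Over the 11 libraries Gbp10 correlated with Gbp6 at a Pearson r of 0.93. The annotated transcripts of these genes are similar: 73.3% of the 50-base windows of Gbp10 transcripts also occur in Gbp6 transcripts, and 45.9% of those of Gbp6 in Gbp10. Gbp10 stood at 2.39 to 8.11% of the Gbp6 level in each library. How reads that match both were counted is not given in the sources used here. The level of either gene is therefore uncertain by an amount that is not known here. Whether the Gbp10 values and their likeness to Gbp6 are those of a separate gene was not tested. Of the other members, Gbp8 shares 18.1% of its windows with another family gene and Gbp9 8.0%, and the remaining 5 share 0.0 to 7.5%.

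Genes with a pattern like that of Gbp6 were sought among 10756 genes outside the members with a mean of at least 50 normalized counts. Gbp10 averaged less than that minimum, so no other Gbp gene could be found in this way. The nearest were Myot, which encodes the Z-disc protein myotilin (Pearson r 0.975 over 11 libraries), and Gpcpd1, a glycerophosphocholine phosphodiesterase (0.957). Next came Lrrc2, a leucine-rich repeat protein (0.948), Mlxipl, the carbohydrate-responsive transcription factor ChREBP (0.945), and Rab7, a GTPase of late endosomes (0.942). Myot had 3269, 3339 and 2829 normalized counts in EC KO hearts, 952, 1078 and 1112 in MHC KO hearts, 2969, 3038 and 2217 in Total KO hearts, and 2129 and 1335 in Control hearts. As in Gbp6, the EC KO libraries stood above and the MHC KO libraries below all Control libraries, but EC KO and Total KO libraries overlapped. Gbp4, the other member with the highest mean normalized count without regard to length, was taken after the values were seen. Its Pearson r was 0.93 with Gbp9, 0.91 with Gbp7, 0.90 with Gbp3, 0.89 with Gbp5, 0.84 with Gbp2 and 0.16 with Gbp6. Members were again left out of the search. Outside them the genes nearest to Gbp4 were H2-Q5, a class I histocompatibility gene (0.859), Eif4e3, a cap-binding factor (0.847), and Cd274, the checkpoint ligand PD-L1 (0.837). Wars, the tryptophanyl-tRNA synthetase (0.835), and Pctp, a phosphatidylcholine transfer protein (0.818), came next.

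Among the genes upstream, Ifng, the gene of interferon gamma itself, had 5 reads in all, in 3 of the 11 libraries, so its level could not be compared at this depth. Of the 12 tested genes of interferon gamma signalling, limma called 0 in MHC KO against Control and 0 in Total KO against Control, with medians of -0.02 and 0.06. In each contrast 2 had an unadjusted p under 0.05. In MHC KO against Control edgeR called 1 and DESeq2 2, and in Total KO against Control both called 0. In Total KO against MHC KO limma called 1, Jak1, a kinase of the receptor, which averaged 4263 normalized counts in Total KO hearts, against 2393 in MHC KO hearts, a log2 difference of 0.83 ± 0.11 (SE; limma, adjusted p = 0.00113). Irf1 averaged 476 normalized counts in EC KO hearts, 451 in MHC KO hearts, 478 in Total KO hearts and 394 in Control hearts, and it was not called in limma in any of these contrasts.

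The immunity-related GTPases, several of which act with the guanylate-binding proteins on pathogen vacuoles, had 7 tested genes. Of these 7, limma, edgeR and DESeq2 called 0 in any contrast. In limma 1 of them, Irgq, had an unadjusted p under 0.05 in MHC KO and in Total KO against Control. Their medians were -0.47 in EC KO, -0.32 in MHC KO and -0.19 in Total KO hearts against Control, and 0.15 in Total KO against MHC KO hearts. Igtp averaged 331 normalized counts in EC KO hearts, 341 in MHC KO hearts, 423 in Total KO hearts and 533 in Control hearts. Irgq averaged 604 normalized counts in EC KO hearts, 641 in MHC KO hearts, 632 in Total KO hearts and 496 in Control hearts. Among the 14 tested immunoproteasome, peptide loading and chemokine genes, limma called 3 in MHC KO against Control: Serping1, the complement C1 inhibitor, rose by 1.0 ± 0.21 on the log2 scale (SE, adjusted p = 0.0211), Psmb10, a subunit of the immunoproteasome, by 0.57 ± 0.15 (SE, adjusted p = 0.0455), and Psme1, a proteasome activator subunit, had -0.44 ± 0.12 (SE, adjusted p = 0.0473). In Total KO against Control hearts 0 of the 14 were called by limma, edgeR or DESeq2 and 0 had an unadjusted p under 0.05, and in Total KO against MHC KO hearts Serping1 was lower by limma (-0.99, adjusted p = 0.00581).

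Of 26 tested type I interferon-stimulated genes, limma called 0 in MHC KO and 0 in Total KO against Control, with medians of -0.11 and -0.15. Both edgeR and DESeq2 also called 0, and 1 and 0 genes had an unadjusted p under 0.05 in limma. In Total KO against MHC KO hearts 1 was called, Ifit2, which was lower in Total KO hearts (log2 difference -0.72, limma, adjusted p = 0.0166). Of 6 tested inflammasome genes, limma called 0 against Control in MHC KO and in Total KO hearts, with medians of 0.18 and -0.22, and 1 and 0 had an unadjusted p under 0.05. In MHC KO against Control hearts edgeR and DESeq2 each called 1, and in Total KO against Control hearts 0. Pycard, the adaptor ASC, was lower in Total KO than in MHC KO hearts (-0.90, limma, adjusted p = 0.0412).

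Between EC KO and MHC KO hearts pathway genes passed in limma in both directions, in a contrast in which 19.1% of all genes tested were called. In interferon gamma signalling 2 of 12 were higher in EC KO hearts, Jak1 (log2 difference 0.67, adjusted p = 0.00205) and the phosphatase gene Ptpn11 (0.37, adjusted p = 0.0138), and 3 were lower, Ciita, the transactivator of class II histocompatibility genes (-1.03, adjusted p = 0.0388), the receptor chain gene Ifngr2 (-0.32, adjusted p = 0.046) and the transcription factor gene Irf8 (-0.69, adjusted p = 0.0469). Serping1 (-1.17) and Psmb10 (-0.56) were lower and Psme1 (0.41) was higher in EC KO hearts, 3 of 14 genes of their list. Ifit2 was lower (-1.05) and Xaf1, a pro-apoptotic interferon-stimulated gene, higher (1.09) in EC KO hearts, 2 of 26 type I interferon-stimulated genes. Of the 6 inflammasome genes, Pycard (-1.49) and Aim2, a sensor of DNA (-0.97), were lower. Of macrophage and monocyte markers, 11 of 11 were lower in EC KO hearts in limma, with sums of 4302 to 5022 in EC KO hearts, against 8910 to 16730 in MHC KO hearts, and 8 of 12 endothelial markers were higher. Fibroblast markers were lower for 9 of 10 genes, and cardiomyocyte markers higher for 3 of 10, with sums of 1344000 to 1439000 in EC KO hearts, against 801000 to 1153000 in MHC KO hearts. The part of these cell types in the differences was not tested. Markers of lymphocytes were close to the limit of detection: summed T and NK cell markers were 25.5 to 68.7 normalized counts and summed B cell markers 18.1 to 42.5 over the 11 libraries.

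**Figure D5:**
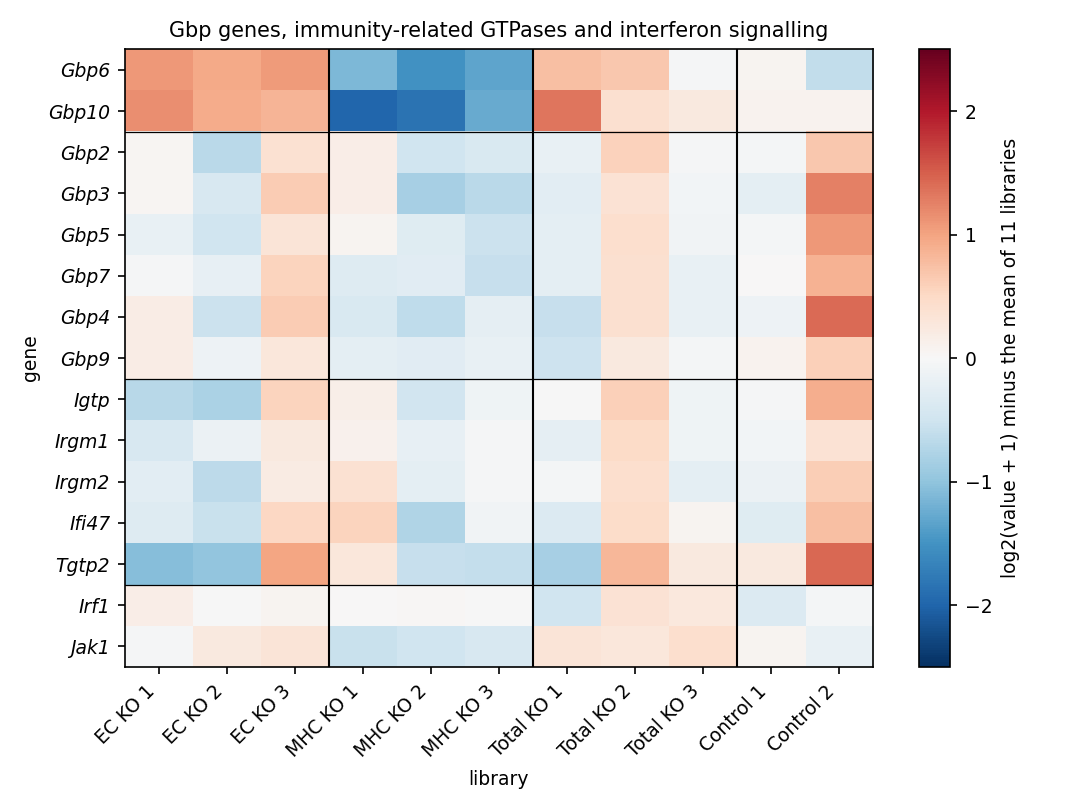
Log2(value + 1) minus the mean of the 11 libraries (colour scale) for Gbp genes, immunity-related GTPases and interferon signalling genes (rows) in each library (columns, in the order EC KO, MHC KO, Total KO, Control). Gbp6 and Gbp10 are high in EC KO and low in MHC KO libraries, and the other Gbp genes and the GTPases are highest, or nearly so, in Control replicate 2.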

How the data were processed

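RNA was measured in whole mouse heart in 11 libraries from 4 groups. Per the labels' protocols, 400 ng of total RNA went into a stranded, ribosomal RNA depleted Illumina preparation. Per the submitters' processing notes, the tools were TopHat2, HTSeq 0.8.0 and DESeq2 (given as version 3.5) with build mm10. The counting mode, strand setting, annotation and filters are not given in the sources used here. The deposited table gives a signal per gene, read counts that the authors divided by a factor for each library; all 257620 values (100%) came within 0.05 reads of whole reads, so depth and reads were recovered from them.

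Differences were tested with limma 3.58.1 (R 4.3.3; moderated, with a mean trend) on log2(value + 1) in a single fit of all 11 libraries, over the 12976 genes that averaged 10 or more, with Benjamini-Hochberg adjustment per contrast and a threshold of 0.05. Fold changes on this scale understate those of low genes. Alternatives were edgeR 4.0.16 and DESeq2 1.42.0 on the recovered reads, fits to the groups compared alone, pseudocounts of 0.5 and 5, a filter at 50 or none, rescaling to library totals or upper quartiles, quantile normalization, and leaving out each library. The limma procedure was tested on simulated data.

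The members and gene lists were chosen with earlier results of these data known. Text names the 8 members, the 5 genes outside the members most like Gbp6 and like Gbp4, and genes from each pathway list. From each list these are the genes that passed or otherwise those of lowest p. Gbp10 and Irf1 were named after their values were seen. Replicate numbers follow accession order and only name libraries.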

Additional observations from a re-analysis of the deposited data

How the results depend on the processing

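No paired analysis was possible because the replicate numbers were given in accession order and do not link libraries across groups. The 28 member differences (7 genes in 4 contrasts) gave 616 values under alternatives. Of these, 591 kept their direction and side of the threshold or, in the untested EC KO minus Control, moved by less than the SE. Many could hardly do otherwise, as leaving out a library of a group outside a contrast does not change its difference. Most tested differences were also uncalled from the start, so the count of 591 is no measure of how firm the results are. The number of members called in MHC KO minus Control was 1; it was 0 in the fit to these 2 groups alone (Gbp6 adjusted p = 0.0758 in limma) and 3 by DESeq2 (Gbp6, Gbp7 and Gbp9), and 0 to 1 when single libraries were left out. Over all genes the calls in that contrast numbered 739, and 63 in the fit to the 2 groups, 1276 by DESeq2 and 26 without Control replicate 1. For Gbp6 the adjusted p in that contrast ranged from 0.000353 to 0.262 over 22 alternatives (limma, edgeR or DESeq2), with log2 differences of -1.39 to -0.70. The median member difference in EC KO minus Control, -0.40, ranged from -0.77 to 0.10 when single libraries were left out, the ends being without Control replicate 1 and without Control replicate 2. In Total KO minus Control, differences ranged from -0.56 to 0.17 for Gbp2, -1.25 to 0.26 for Gbp3, -1.54 to 0.01 for Gbp4 and -1.04 to 0.08 for Gbp5 when single libraries were left out, the negative ends being without Control replicate 1 and the turned signs without Control replicate 2. In Total KO minus MHC KO, Gbp9 turned to -0.0028 with rescaling to library totals, which moved the median of all genes to -0.14, and ranged from -0.04 to 0.34 when single libraries were left out, negative without Total KO replicate 2. The cause of these changes was not tested. With 2 Control libraries of which 1 is the highest library for 6 members, contrasts with Control are the least precise, and EC KO replicate 1 is the shallowest library.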
